A study of Mus musculus with 24 samples.

Results

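The genes described here are 10 genes of the homeostatic astrocyte, chosen by function (glutamate uptake, water channel, gap junction, metabolism and identity): Slc1a2, Slc1a3, Glul, Aqp4, Gja1, Gjb6, Aldh1l1, Aldoc, Atp1b2 and Sox9. All 10 were among the 55417 genes of the count table, and all 10 were among the 16767 genes with enough reads to be tested. They were measured by bulk RNA sequencing of the dissected entorhinal cortex (EC), the cortical gateway to the hippocampus, in mice aged 2 to 4 months. Groups of 6 libraries each came from vehicle (4 females and 2 males) and from day 1, day 2 and day 3 after activation of the GlyCl channel (3 females and 3 males each). Every mouse, vehicle included, was Nop-tTA Line S crossed with TRE-GlyCl-YFP Line 9531, genotype tg/tg, so no group without the transgenes was analysed here. Nop-tTA places the transactivator under the neuropsin promoter, which is active mainly in superficial EC neurons, and GlyCl is an engineered chloride channel that silences the neurons that carry it. The promoter thus directs the channel mainly to neurons. In bulk tissue, the cell that each read of the 10 genes came from was not measured. The labels name neither the activating agent nor the time at which vehicle tissue was taken.

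Astrocytes keep the space around synapses in balance. They take up glutamate, turn it into glutamine for neurons, move water and potassium to their endfeet on vessels, and share metabolites through gap junctions. In reactive gliosis, astrocytes raise the intermediate filament Gfap and may lose part of this equipment. In whole tissue, fewer astrocytes and less RNA per astrocyte cannot be told apart.

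For Glul and Aldoc, the pair that varied most alike from library to library, and Slc1a3, the member with the highest correlation with the mean of the others (values below), the RefSeq promoter windows are shown, 250 bases before to 50 after the start site, on assembly GRCm38.p6. Windows were found for 7 of the 10 members, 8 windows in all because Aldoc has 2. Capitals mark TTGGC, searched on both strands (GCCAA on the other), the half-site of the NFI transcription factors, which are known from astrocyte development. Glul lies at chr1:153899679-153899978 on the plus strand, the upstream window of Aldoc at chr11:78322823-78323122 on the plus strand and Slc1a3 at chr15:8710758-8711057 on the minus strand.
Glul: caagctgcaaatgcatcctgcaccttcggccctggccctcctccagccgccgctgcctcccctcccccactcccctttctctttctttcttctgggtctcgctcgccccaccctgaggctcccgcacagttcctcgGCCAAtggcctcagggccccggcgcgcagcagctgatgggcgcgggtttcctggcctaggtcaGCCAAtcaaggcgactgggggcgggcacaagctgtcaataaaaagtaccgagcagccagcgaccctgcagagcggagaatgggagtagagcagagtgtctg
Aldoc: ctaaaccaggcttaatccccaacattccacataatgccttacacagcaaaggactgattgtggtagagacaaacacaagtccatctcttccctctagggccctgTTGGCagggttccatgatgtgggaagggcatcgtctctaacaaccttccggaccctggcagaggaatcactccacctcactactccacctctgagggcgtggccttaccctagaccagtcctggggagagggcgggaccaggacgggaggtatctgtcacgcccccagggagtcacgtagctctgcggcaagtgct
Slc1a3: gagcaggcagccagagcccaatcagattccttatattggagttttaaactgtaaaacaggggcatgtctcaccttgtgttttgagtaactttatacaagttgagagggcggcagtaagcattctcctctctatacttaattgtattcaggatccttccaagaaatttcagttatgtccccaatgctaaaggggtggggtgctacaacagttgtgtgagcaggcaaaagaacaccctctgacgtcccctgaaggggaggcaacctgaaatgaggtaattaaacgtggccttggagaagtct
The half-site stood at -114 and -51 from the start site in Glul and at -146 in Aldoc, with none in the Slc1a3 window. It was in 3 of the 8 member windows, Slc1a2 being the other gene, and in 46.7% of all 32851 windows of the same length. The full palindrome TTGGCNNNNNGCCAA, which contains the half-site, was in 0 of the 8 and in 0.0365% of all windows. The SOX hexamers ACAAAG and ACAATG, searched on both strands, were in 0 of the 8 and in 28.6% of all windows.

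Levels were compared between genes as CPM (the read count scaled to the normalized library total) per kilobase of exon. Averaged over the 24 libraries, Glul, which makes glutamine from glutamate, stood at 315 ± 22.6 CPM per kilobase (SD, n = 24). Slc1a2, the main astrocyte glutamate transporter (GLT-1), followed at 240 ± 13.8 and Aldoc, the brain form of the glycolytic enzyme aldolase, at 237 ± 15.8. Atp1b2, the glial beta subunit of the sodium pump, was at 121 ± 4.58 and Slc1a3, the glutamate transporter GLAST, at 73.0 ± 5.12. Next came Aqp4 (20.6 ± 2.29), Gja1 (20.3 ± 1.62) and Gjb6 (19.7 ± 2.38), followed by Aldh1l1 (12.3 ± 0.846) and Sox9 (10.2 ± 1.19). Over the 24 libraries, the ranges of Slc1a2 and Aldoc overlapped, as did those of Aqp4 and Gja1, Gja1 and Gjb6, and Aldh1l1 and Sox9, whereas each other neighbour in the order was apart. In CPM, without regard to length, Slc1a2 ranked 10 and Sox9 5142 of the 16767 genes tested. None of the 10 was at 0 in any library, and the fewest reads in a library were 536, for Sox9.

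Total counts were 16.6 to 23.7 M reads per library, and 8 of the 24 libraries stood apart by choroid plexus transcripts. In these 8, Ttr, the main choroid plexus transcript, was at 562 to 1170 CPM, against 8.37 to 25.9 CPM in the other 16. They comprised 1 vehicle, 2 day 1, 2 day 2 and 3 day 3 libraries. The summed level of 14 choroid plexus genes spanned 170 to 1812 CPM at day 3 and 147 to 1938 CPM in vehicle. Of the 14, 0 had 0 reads over the 24 libraries together.

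The comparison of each day with vehicle sets the astrocyte support genes of tissue with silenced neurons beside those of tissue whose channel was not activated. None of the 10 passed on any of the 3 days, and the levels of every one overlapped between day and vehicle libraries. The groups did not overlap for 0.596%, 0.328% and 0.662% of all genes at days 1, 2 and 3. By edgeR's quasi-likelihood test, 0 of 10 members were called at day 1, 0 at day 2 and 0 at day 3 (adjusted p under 0.05 over all genes). Of all genes tested, 0.0656% were called at day 1, 0.0656% at day 2 and 0.614% at day 3. DESeq2 and limma voom also called 0 of 10 on each day. At an unadjusted p under 0.05 there were 1 of 10 members at day 1, 1 at day 2 and 2 at day 3, where 7.25%, 5.2% and 5.64% of all genes reached it. The median log2 fold change of the members was -0.05 at day 1, -0.05 at day 2 and -0.03 at day 3, beside 0.0011, 0.00059 and -0.0016 for all genes tested. Of the 10, 3 lay above 0 at day 1, 2 at day 2 and 4 at day 3. Over these 30 fits the 95% intervals reached from 0.829-fold to 1.28-fold.

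**Figure D1:**
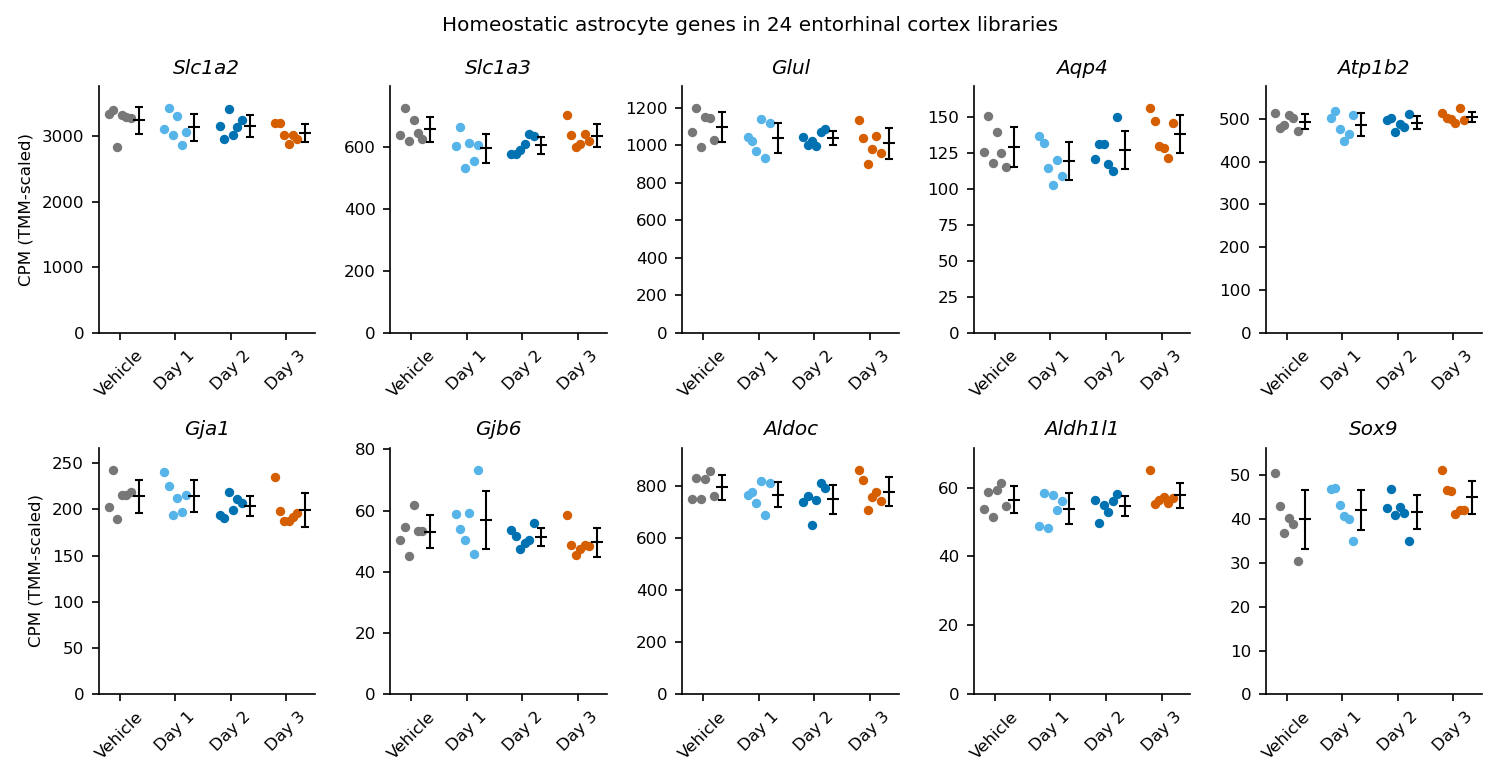
Levels in CPM (vertical axis of each panel, from 0) of the 10 members by group, with vehicle and days 1 to 3 from left to right; points are libraries and bars are mean and SD (n = 6). Each panel shows overlapping groups, for example Slc1a2 at 2889 to 3210 CPM at day 3 and 2838 to 3398 CPM in vehicle, and Sox9 at 41.1 to 51.2 CPM at day 3 and 30.3 to 50.5 CPM in vehicle.

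The 3 genes of glutamate handling had the member changes with the lowest unadjusted p against vehicle, all on the lower side. Slc1a3 (ENSMUSG00000005360.15) had lowest, median and highest levels of 618, 642 and 724 CPM in vehicle, 532, 605 and 664 CPM at day 1, 577, 600 and 641 CPM at day 2, and 601, 629 and 703 CPM at day 3. The groups overlapped on all 3 days, with the medians of days 1 and 2 below the lowest vehicle library. Its log2 fold change was -0.13 ± 0.05 at day 1 (SE, 95% interval -0.23 to -0.03, adjusted p = 0.436), -0.11 ± 0.05 at day 2 (adjusted p = 0.907) and -0.04 ± 0.05 at day 3 (adjusted p = 0.999). None of these passed the threshold.

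Slc1a2 (ENSMUSG00000005089.16) had lowest, median and highest levels of 2838, 3318 and 3398 CPM in vehicle, 2870, 3093 and 3428 CPM at day 1, 2961, 3158 and 3413 CPM at day 2, and 2889, 3023 and 3210 CPM at day 3. One vehicle library, Vehicle 3, lay below every other Slc1a2 value, and the next vehicle library was at 3288 CPM. The log2 fold change was -0.05 ± 0.04 at day 1, -0.04 ± 0.04 at day 2 and -0.09 ± 0.04 at day 3 (adjusted p = 0.862, 0.990 and 0.844). With 1 library left out it ranged from -0.087 to -0.028 at day 1, -0.080 to -0.028 at day 2 and -0.13 to -0.077 at day 3. None of these passed the threshold. Glul (ENSMUSG00000026473.17) had medians of 1108 CPM in vehicle, 1035 at day 1, 1034 at day 2 and 1010 at day 3. Its range was 900.2 to 1132 CPM at day 3 and 989 to 1196 CPM in vehicle, so the groups overlapped. Of the day 3 libraries, 3 lay below the lowest vehicle library and 1 lay above the vehicle median. The Glul log2 fold change at day 3 was -0.12 ± 0.05 (95% interval -0.23 to -0.01, adjusted p = 0.825), and -0.04 without the 8 Ttr-rich libraries.

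The ratio of the 2 transporters was read within each library, where scaling cancels. Slc1a2 reads per Slc1a3 read averaged 5.28 ± 0.232 at day 1 and 4.96 ± 0.287 in vehicle (SD, n = 6 each; two-sided exact permutation p = 0.0758, adjusted over 9 tests 0.171). The ratio was 5.23 ± 0.333 at day 2 (exact permutation p = 0.167) and 4.81 ± 0.180 at day 3 (exact permutation p = 0.297), neither past the threshold. With 6 libraries on each side, no p under 0.00216 is possible. Of 17 other genes of glutamate and GABA uptake and the glutamine cycle, 0 were called on any day by edgeR, with 7 of 17 above 0 on each day and medians of -0.02, -0.02 and -0.01.

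Aqp4 (ENSMUSG00000024411.12), is the water channel of the endfeet. Its lowest, median and highest levels were 115, 126 and 151 CPM in vehicle, 103, 117 and 137 CPM at day 1, 113, 126 and 150 CPM at day 2, and 121, 138 and 156 CPM at day 3. Day 1 held the lowest libraries and day 3 the highest, and both overlapped vehicle. The log2 fold change was -0.09 ± 0.06 at day 1 and 0.12 ± 0.06 at day 3 (95% interval -0.01 to 0.26, adjusted p = 0.836 and 0.938), and at day 2 it was 0.0049 ± 0.06.

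Between the days, Aqp4 had the lowest unadjusted p of the members. At day 3 against day 1 its log2 fold change was 0.22 ± 0.06 (95% interval 0.09 to 0.35, edgeR adjusted p = 0.149). In Aqp4, 6 of 6 day 3 libraries lay above the day 1 median, as also in Aldh1l1 and Atp1b2. The share of all genes with such a count was not taken. Aqp4 did not pass over all genes. Gjb6 was on the other side, at -0.20 ± 0.08 (edgeR adjusted p = 0.450), and at -0.11 without Day1 6, the highest day 1 library. In this comparison edgeR, DESeq2 and limma voom each called 0 of 10 members, 2 of 10 had an unadjusted p under 0.05 (8.39% of all genes did), and 0.65% of all genes were called. At day 2 against day 1 and at day 3 against day 2, 0 of 10 members were called by any of these tools and 0 of 10 had an unadjusted p under 0.05, beside 0.0119% and 0.131% of all genes called and 4.25% and 4.94% at that unadjusted p. Without the 8 Ttr-rich libraries, the Aqp4 value was 0.14 at day 3 against day 1 and 0.05 at day 3 against vehicle. Without the filter on low counts, edgeR called both Aqp4 (0.21, adjusted p = 0.0027) and Gjb6 (-0.21, adjusted p = 0.0228) at day 3 against day 1. That fit called 295 genes in all in this comparison, where the main model called 109.

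Aqp4 was also the member with the lowest unadjusted p between the sexes. Males averaged 108.7 CPM (102.7 to 114.3) and females 129.7 CPM (120.5 to 136.9) at day 1, 3 libraries each; 7.78% of all genes likewise had sexes that did not overlap at day 1. Males were also lower by mean at day 2 (121.7 and 132.8 CPM), at day 3 (132.4 and 144.0 CPM) and in vehicle (120.6 and 133.6 CPM), and there the sexes overlapped in each group. With group in the model, the male to female log2 fold change was -0.16 ± 0.05 (edgeR adjusted p = 0.515), which did not pass. It passed without the filter on low counts (edgeR adjusted p = 0.000851), in a fit that called 132 genes in all for sex, where the main model called 12. In the main model 0 of 10 members were called and 1 of 10 had an unadjusted p under 0.05 for sex, beside 0.0716% of all genes called and 7% at that unadjusted p. The group by sex interaction called 0 members, 0 members had an unadjusted p under 0.05 for it, and 0% of all genes were called, with 3.49% at that unadjusted p.

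Of 13 other water channels and endfoot partners, 0 were called on any day by edgeR. Their medians were -0.02 at day 1, 0.0029 at day 2 and 0.0043 at day 3, and their highest value was 1.09 ± 0.87 at day 3, for Aqp1 (adjusted p = 0.999), a water channel that the choroid plexus list also holds.

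The gap junction genes also overlapped on all days. Gja1 (connexin 43, ENSMUSG00000050953.11) had medians of 215, 214, 203 and 194 CPM in vehicle and at days 1, 2 and 3, with ranges of 189 to 242, 193 to 240, 191 to 219 and 187 to 235 CPM. At day 3, 5 libraries were at 198 CPM or less and the remaining one, Day3 1, was at 235 CPM. Its day 3 log2 fold change was -0.10 ± 0.06 (adjusted p = 0.999), and -0.15 without Day3 1 (adjusted p = 0.592). Gjb6 (connexin 30, ENSMUSG00000040055.10) had medians of 53.4, 56.6, 51.1 and 48.6 CPM in vehicle and at days 1, 2 and 3, and its widest spread was at day 1 (45.7 to 73.3 CPM, the highest being Day1 6). Its log2 fold change was 0.10 ± 0.08 at day 1, -0.05 ± 0.08 at day 2 and -0.10 ± 0.08 at day 3 (adjusted p = 0.868, 0.991 and 0.999). The day 1 value was 0.017 without Day1 6 and 0.17 without Day1 5.

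Gjb6 reads per Gja1 read averaged 0.249 ± 0.0206 in vehicle, 0.266 ± 0.0400 at day 1, 0.253 ± 0.0232 at day 2 and 0.249 ± 0.00453 at day 3 (SD, n = 6 each; exact permutation p = 0.403, 0.712 and 0.922 for the days against vehicle). The ratio thus differed by less than the spread between libraries on each day. Of 10 other connexins and pannexins, 0 were called on any day by edgeR, with medians of 0.0022 at day 1, -0.01 at day 2 and 0.05 at day 3.

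Of the metabolic genes, Aldh1l1 (ENSMUSG00000030088.16), a folate enzyme used as a pan-astrocyte marker, had medians of 56.8, 54.8, 55.5 and 56.6 CPM in vehicle and at days 1, 2 and 3. Its values against vehicle were -0.07 ± 0.06, -0.04 ± 0.06 and 0.03 ± 0.06 on the log2 scale at days 1, 2 and 3. Aldoc (ENSMUSG00000017390.16) had medians of 793, 771, 753 and 766 CPM, with its lowest library at day 2 (648 CPM) and its highest at day 3 (861 CPM). Its log2 fold changes were -0.04 ± 0.05, -0.08 ± 0.05 and -0.02 ± 0.05. Of 24 other genes of astrocyte glycolysis, glycogen, lactate and serine metabolism, 0 were called on any day by edgeR, and 8, 5 and 13 of 24 were above 0.

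Atp1b2 (ENSMUSG00000041329.14) was the steadiest member, with a coefficient of variation of 3.79% over the 24 libraries, against 11.1% for Aqp4 and 11.7% for Sox9. It spanned 489 to 524 CPM at day 3 and 472 to 514 CPM in vehicle, and its log2 fold changes were -0.02 ± 0.04, -0.0046 ± 0.04 and 0.04 ± 0.04 at days 1, 2 and 3. Of 10 other genes of the sodium pump and glial ion transport, 0 were called on any day by edgeR.

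Sox9 (ENSMUSG00000000567.6), the transcription factor that marks astrocyte nuclei, was the member with the largest fold change against vehicle. Its lowest, median and highest levels were 30.3, 39.6 and 50.5 CPM in vehicle, 34.9, 41.9 and 47.0 CPM at day 1, 34.9, 42.0 and 46.7 CPM at day 2, and 41.1, 44.2 and 51.2 CPM at day 3. All 6 day 3 libraries lay above the vehicle median, and the vehicle libraries reached up to 50.5 CPM, so that the groups overlapped. The day 3 log2 fold change was 0.18 ± 0.09 (95% interval -0.0027 to 0.36, adjusted p = 0.899). It lay between 0.10 (without Vehicle 6) and 0.29 (without Vehicle 1) when 1 library was left out, none of these past the threshold. Among the alternatives it passed only with the first 2 digits of the library number as a factor (0.25, adjusted p = 0.0325); the labels do not say what these digits stand for. Of 20 other astrocyte and glial transcription factors, 0 were called on any day by edgeR, and 3, 7 and 8 of 20 lay above 0 at days 1, 2 and 3.

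**Figure D2:**
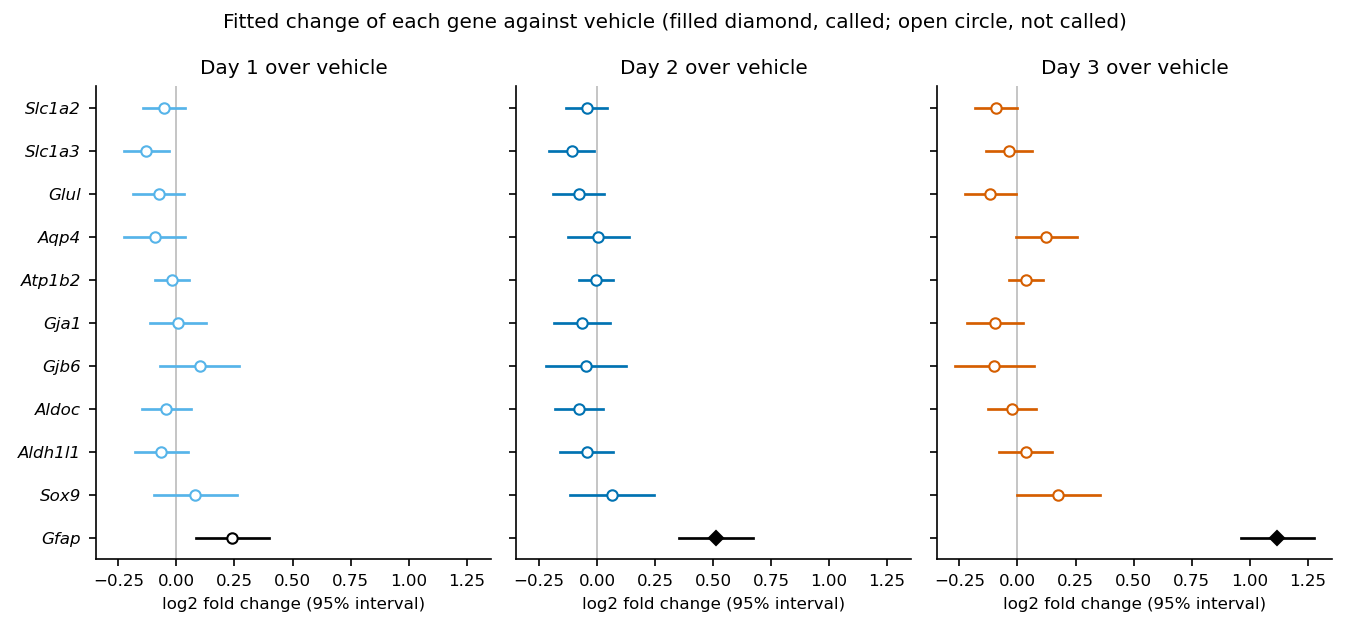
Log2 fold change of each member against vehicle at days 1, 2 and 3 with 95% intervals from edgeR (n = 6 libraries per group), with Gfap on the same axis. The members lie between -0.13 and 0.18, whereas Gfap is at 0.51 at day 2 and 1.12 at day 3.

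There were 126 other genes listed for these roles and as general astrocyte markers. Of these, edgeR called 0 at day 1, 0 at day 2 and 1 at day 3. The shares of all genes tested were 0.0656%, 0.0656% and 0.614%. At an unadjusted p under 0.05 there were 13, 13 and 12 of the 126, beside 7.25%, 5.2% and 5.64% of all genes. Of the 126, the gene called at day 3 was Slc14a1, a urea transporter of astrocytes, at 0.46 ± 0.09 (edgeR adjusted p = 0.00386). Without the 8 Ttr-rich libraries it was at 0.36 and no longer passed (adjusted p = 0.541). The medians of the 126 were -0.02, -0.03 and -0.0021. The joint test of the 3 days called 0 of the 10 members, with 2 of 10 (Aqp4 and Slc1a3) at an unadjusted p under 0.05, beside 0.644% of all genes called and 7.07% at that unadjusted p. Without the filter on low counts the joint test called 1 member, Aqp4 (edgeR adjusted p = 0.0223). It then called 433 genes in all, where the main model called 108.

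Gfap (ENSMUSG00000020932.15) rose at days 2 and 3 in the same libraries. Its lowest, median and highest levels were 161, 189 and 224 CPM in vehicle, 197, 214 and 255 CPM at day 1, 228, 246 and 314 CPM at day 2, and 348, 394 and 475 CPM at day 3. All 6 day 2 libraries and all 6 day 3 libraries lay above the highest vehicle library. The log2 fold change was 0.24 ± 0.08 at day 1 (edgeR adjusted p = 0.344, not called), 0.51 ± 0.08 at day 2 (adjusted p = 0.00116) and 1.12 ± 0.08 at day 3 (adjusted p = 1.77e-10). Without the filter on low counts, Gfap passed at day 1 (edgeR adjusted p = 0.000106). That fit called 159 genes in all at day 1, where the main model called 11.

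Set against Aldh1l1 within each library, Gfap reads per Aldh1l1 read averaged 6.90 ± 0.531 at day 3 and 3.30 ± 0.296 in vehicle (SD, n = 6 each), a 2.09-fold difference. The two-sided exact permutation p was 0.00216, the smallest possible, and 0.00974 adjusted over 9 tests. The ratio was 4.81 ± 0.706 at day 2 (1.45-fold, exact permutation p = 0.00216, adjusted 0.00974) and 4.06 ± 0.679 at day 1 (1.22-fold, exact permutation p = 0.0173, adjusted 0.0520). Every day 2 and day 3 library had a higher ratio than every vehicle library. The day 1 value did not pass, and it did pass without Vehicle 2 (adjusted p = 0.0195) or without Day1 4 (adjusted p = 0.0260). Among 19 tested reactive astrocyte genes, Gfap was called at day 2, and Gfap and Aspg, an asparaginase, at day 3 (Aspg 0.71 ± 0.16, adjusted p = 0.0228). The Aspg call ended without any one of Vehicle 1, 3 or 4 or Day3 1 or 6 (0.63 to 0.70, adjusted p = 0.058 to 0.104).

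**Figure D3:**
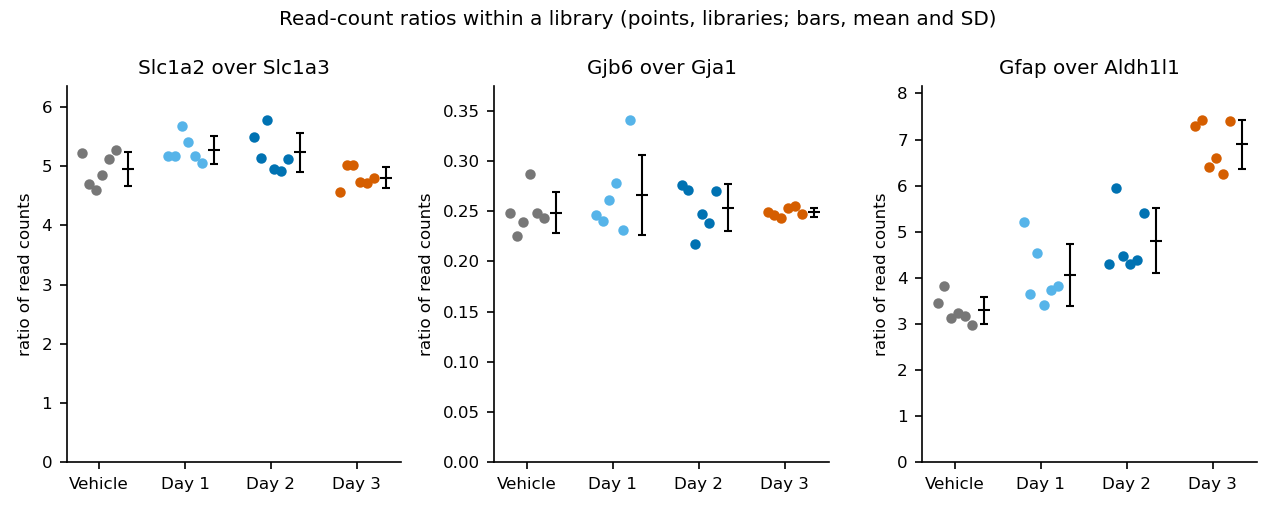
Ratios of read counts within a library (vertical axes, starting at 0) for Slc1a2 over Slc1a3, Gjb6 over Gja1 and Gfap over Aldh1l1, by group from vehicle to day 3; points are libraries and bars are mean and SD (n = 6). The first 2 ratios overlap between groups, and Gfap over Aldh1l1 averages 3.30 in vehicle, 4.06 at day 1, 4.81 at day 2 and 6.90 at day 3.

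Some transcripts of microglia were higher at day 3 as well. Of 10 microglial markers, edgeR called 0 at day 1, 0 at day 2 and 5 at day 3. The shares of all genes called were 0.0656%, 0.0656% and 0.614%. Those called at day 3 included Tyrobp (0.69 ± 0.12), Trem2 (0.48 ± 0.08), C1qb (0.41 ± 0.08) and Cx3cr1 (0.26 ± 0.06), with edgeR adjusted p of 0.00101 to 0.0412. The C1qb call ended without Day3 1 (0.36, adjusted p = 0.0528) and the Cx3cr1 call ended in 5 of 11 alternatives, among them leaving out the Ttr-rich libraries (0.22, adjusted p = 0.761). It also ended without any one of Day1 1, 3 or 6, Day2 2, Day3 1, 2, 3, 5 or 6, or Vehicle 3, 4, 5 or 6 (0.22 to 0.26). The summed level of the 10 was 364 to 472 CPM at day 3 and 321 to 374 CPM in vehicle. The 12 neuronal markers summed to 11750 to 12410 CPM at day 3 and 12140 to 12840 CPM in vehicle, and edgeR called 0 of them on any day. Most lay below 0 against vehicle, 11 of 12 at day 1, 10 at day 2 and 11 at day 3. Their median log2 fold changes were -0.08, -0.06 and -0.06. None of the markers in either list had 0 reads over the 24 libraries together. Their part in the members' values was not tested.

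Across libraries, most members varied together. Log2 CPM with group and sex fitted out was correlated over the 24 libraries for all 45 pairs, which share each library's depth, scaling and dissection. Pearson's r was above 0 in 41 of 45 pairs. Of the 45, 20 had a Benjamini-Hochberg adjusted permutation p under 0.05, all of them positive. Permuting values from which group and sex were fitted out tends to make such p-values too small, here and for the relations with Gfap. The median r was 0.41 and the range -0.11 to 0.83. As a description, 44.4% of member pairs had r above 0.5, beside 2.87% of all pairs of genes tested. The members rank between 10 and 5142 of 16767 by level, all pairs include genes with fewer reads, and pairs matched by level were not examined. In the 16 libraries low in Ttr, the median was 0.55 and 43 of 45 were above 0.

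Glul and Aldoc, whose promoter windows are given above, formed the closest pair, with r = 0.828 and Spearman's rho = 0.840 (permutation p = 1e-05 for each, the smallest possible, adjusted p = 0.000225 and 0.00018 over 45 pairs). Without the 2 libraries farthest from the median on the x axis r was 0.773. Gjb6 and Glul followed, with r = 0.790 and rho = 0.814 (permutation p = 1e-05 for each, adjusted p = 0.000225 and 0.00018), and r = 0.760 without the 2 farthest libraries. Slc1a3 and Glul had r = 0.768 and rho = 0.759 (permutation p = 2e-05 for each, adjusted p = 0.000225 and 0.00018), and r = 0.835 without the 2 farthest libraries. Slc1a3 and Gja1 had r = 0.762 and rho = 0.811 with the same p-values, and r = 0.738 without those libraries. Gjb6 and Aldoc had r = 0.735 and rho = 0.803 (permutation p = 7e-05 and 2e-05, adjusted p = 0.00063 and 0.00018), and r = 0.656 without the 2 farthest libraries. The transporters Slc1a2 and Slc1a3 had r = 0.707 and rho = 0.720 (permutation p = 0.00012 and 0.00013, adjusted p = 0.000836 for each), and r = 0.631 without the 2 farthest libraries. The connexins Gja1 and Gjb6 had r = 0.545 and rho = 0.581 (permutation p = 0.00607 for r, adjusted p = 0.0162), which dropped to 0.369 without the 2 farthest libraries.

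Sox9 and Atp1b2 had 0 of 9 pairs past the threshold each, and Aqp4 had 2 (with Gja1 and Slc1a2). The correlation with the mean of the other 9 members was 0.820 for Slc1a3, 0.807 for Glul and 0.750 for Slc1a2, and at the other end 0.440 for Aqp4, 0.341 for Atp1b2 and 0.121 for Sox9. Day3 1 was the highest of its group for 9 of 10 members, and Vehicle 3 was the lowest of its group for 7 of 10. The part of these 2 libraries in the correlations was not tested beyond leaving out the 2 farthest libraries.

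**Figure D4:**
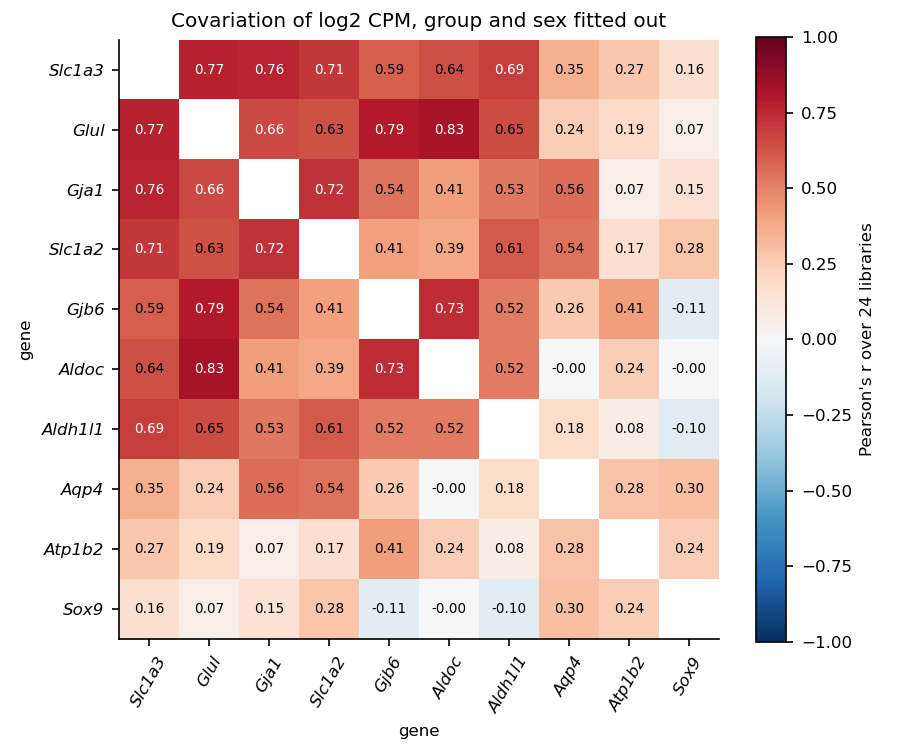
Pearson's r between members over 24 libraries (log2 CPM, group and sex fitted out), shown by colour from -1 to 1 with the value in each cell; rows and columns are genes. Glul with Aldoc is the highest pair (0.83), and the row of Sox9 holds values between -0.11 and 0.30.

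Outside the 10, the genes with a high r to the members' mean included Rassf2 (0.887), Hepacam (0.885), an endfoot adhesion protein, and Sparcl1 (0.883), a protein secreted by astrocytes. They were followed by Csf1r (0.869), a receptor of microglia and macrophages, Podxl (0.862), Axl (0.858), Timp3 (0.852), Mrc1 (0.844), a macrophage receptor, and Tbc1d9b (0.844). In all, 4.98% of the other genes tested had r above 0.5 with that mean. These are descriptions over the same 24 libraries.

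Aqp4 varied with Gfap from library to library. With group and sex fitted out, r was 0.796 and rho 0.772 over 24 libraries (permutation p = 1e-05 and 3e-05, adjusted p for r = 0.0003 over the 30 relations of the members with Gfap, Ttr and total count). Without the 2 farthest libraries r was 0.745, and in the 16 libraries low in Ttr it was 0.806. Among the 16766 other genes tested, Aqp4 ranked 5 by its r with Gfap, after Laptm5, Ctsz, Fabp7 and Rplp0. The other members were lower: Gja1 had r = 0.545 (adjusted p = 0.0846), Gjb6 0.507 (adjusted p = 0.104) and Aldh1l1 0.181, and none of the other 29 relations passed.

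Within each group of 6 libraries, Aqp4 and Gfap had r = 0.918 in vehicle, 0.688 at day 1, 0.822 at day 2 and 0.958 at day 3, with sex left in. The exact permutation p was 0.0139, 0.110, 0.0389 and 0.00972, and adjusted over the 4 groups 0.0278, 0.110, 0.0519 and 0.0278. With sex fitted out as well, r was 0.902, 0.877, 0.771 and 0.947. Spearman's rho was 0.771, 0.714, 0.543 and 0.886, with an exact permutation p of 0.103, 0.136, 0.297 and 0.0333 (adjusted p = 0.181, 0.181, 0.297 and 0.133). The direction was positive in all 4 groups, and none of the rank correlations passed after adjustment.

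**Figure D5:**
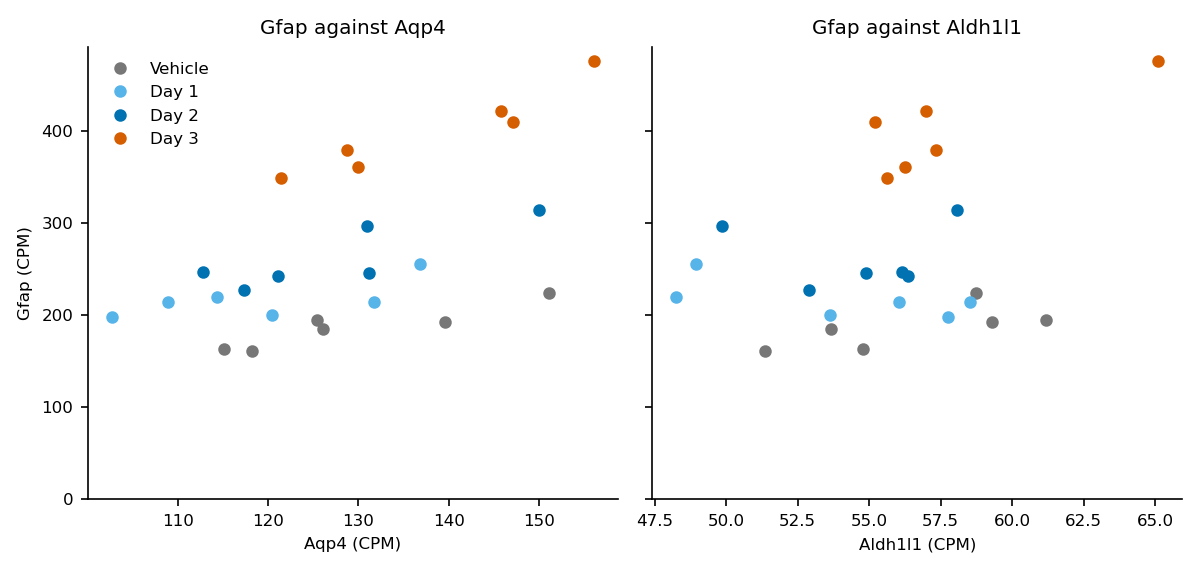
Gfap in CPM (vertical axis, from 0) against Aqp4 and Aldh1l1 in CPM (horizontal axes, not from 0), 1 point per library, coloured by group from vehicle to day 3. Aqp4 rises with Gfap inside each colour (r from 0.688 to 0.958, sex not fitted out), and for Aldh1l1 r was 0.181 over 24 libraries with group and sex fitted out.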

How the data were processed

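Bulk RNA sequencing libraries were compared as 4 groups of 6, taken from the treatment label. The authors deposited raw read counts per gene. Per the submitters' processing notes, build mm39 was used, and STAR 2.7.9a, fastp 0.23.1 and DESeq2 1.32.0 are named. For the counting program, annotation and strand, the sources used here give nothing, so reads of overlapping or antisense genes cannot be told apart. That libraries came from separate animals is not stated; if not, p-values measure only the spread between libraries. No library pair within a group agreed within sampling noise (chi-square over degrees of freedom 3.95 to 13.8).

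Counts were tested with edgeR 4.0.16 in R 4.3.3 (quasi-likelihood, two-sided, trimmed mean of M values factors, filterByExpr with minimum count 10 and minimum total 15, group and sex, all 24 libraries). Adjusted p-values are Benjamini-Hochberg over 16767 genes. CPM used the same factors. Gene symbols matched 52083 identifiers. Kilobases are union exons of GENCODE on GRCm38, another build than that of the files. Ratios were tested by exact permutation, correlations with 100000 permutations on log2 CPM (prior count 2). DESeq2 1.42.0 and limma 3.58.1, scaling, filter, covariates and left-out libraries were alternatives. The edgeR step was tested on simulated data.

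The members, and 19 gene lists with 253 genes, were chosen with earlier results of these data known. Named genes were the 10 members, Gfap, Ttr, the called genes of each list (up to 4 per list by size, plus those in counts of 5 or fewer) and the 10 genes closest to the members' mean, less those not reported here. Laptm5, Ctsz, Fabp7 and Rplp0 were named after their values were seen, as were the comparison within the 16 libraries low in Ttr and the within-group correlations of Aqp4 with Gfap.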

Additional observations from a re-analysis of the deposited data

Results flagged for a closer look

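In 4 of 44 groups examined, 1 library lay far from the other 5, where chance gives about 1 group in 20. Slc1a2 was at 2838 CPM in Vehicle 3, with the next lowest vehicle library at 3288 CPM. The other 3 concern the same library, Day3 1, which was the highest of day 3 for Gja1 (235.3 CPM, next 198), for Gjb6 (58.6 CPM, next 48.85) and for Aldh1l1 (65.09 CPM, next 57.33). Without Day3 1, the day 3 log2 fold change against vehicle was -0.15 for Gja1, -0.16 for Gjb6 and -0.0057 for Aldh1l1, and none of these passed by edgeR (adjusted p = 0.592, 0.951 and 1.00).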

How the results depend on the processing

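Tests between groups were recomputed under 11 alternatives (the joint test under 10, sex and its interaction with group under 9) and with each of 24 libraries left out. Ratios had 2 alternatives and 12 left-out libraries each, and correlations 2 alternatives. Over these fits, the members' log2 fold changes against vehicle stayed between -0.19 and 0.29, and 1 value passed, Sox9 at day 3 with the digits of the library number as a factor (1 member called, adjusted p = 0.0325). Without the filter on low counts, 2 members were called at day 3 against day 1, 1 in the joint test and 1 between the sexes (Aqp4 in both). That setting called 295, 433 and 132 genes in all in these tests, where the main model called 109, 108 and 12. No alternative moved the median of all genes by more than 0.02 through scaling.

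Values near 0 changed sign. Aqp4 at day 2 became -0.023 without sex, -0.0032 with the digits and -0.0062 without the Ttr-rich libraries. Gja1 at day 1 became -0.00080 without sex and -0.012 without the Ttr-rich libraries, and Aldoc at day 3 became 0.026 without those. With the digits, Gjb6 at day 2 was 0.020, Atp1b2 0.015 and Sox9 -0.0053. Atp1b2 was 0.00092 at day 1 and 0.0061 at day 2 with library totals, and 0.0027 at day 2 with upper-quartile factors. The cause was not tested.

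With 1 library left out, ranges that crossed 0 were -0.037 to 0.044 (Aqp4, day 2), -0.030 to 0.041 (Gja1, day 1), -0.0057 to 0.057 (Aldh1l1, day 3), -0.036 to 0.0017 and -0.018 to 0.014 (Atp1b2, days 1 and 2) and -0.0091 to 0.18 (Sox9, day 2). The log2 ratio of Gjb6 to Gja1 ranged from -0.0014 to 0.070 at day 2 and -0.022 to 0.048 at day 3, and Gfap to Aldh1l1 from 0.21 to 0.34 at day 1. Without the Ttr-rich libraries the last ratio was 0.52 at day 2 and 1.02 at day 3 (exact permutation, adjusted p = 0.0714 for both). It passed on neither day, with fewer libraries per group. The day 2 and day 3 libraries left still all had higher ratios than every vehicle library. The permutation p was thus already the smallest possible, and this setting cannot show whether the calls depend on the Ttr-rich libraries. The median r between members was 0.309 without the 2 farthest libraries and 0.546 without the Ttr-rich libraries, an alternative chosen after seeing the data.

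Counts over all genes depended more on the settings: 9 to 159 genes at day 1 (11 in the main model), 2 to 86 at day 2 (11) and 49 to 217 at day 3 (103). With 1 library left out they were 4 to 28 at day 1 (4 without Vehicle 6, 5 without Day1 1 or Vehicle 4, 6 without Day1 4, 19 without Day1 2, 22 without Day2 3 and 28 without Vehicle 3), 7 to 12 at day 2 (7 without Day2 2 or Vehicle 5) and 72 to 110 at day 3. No paired analysis was possible because the labels give no replicate numbers that tie libraries across groups. With 6 libraries per group, standard errors of the members' log2 fold changes were 0.04 to 0.09.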
